A study of Arabidopsis thaliana with 15 samples.

Results

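The mitochondrial genome of Arabidopsis thaliana was represented by 53 rows of the count tables, taken as every row whose gene identifier began with ATM, out of 32733 rows in all. The rows were followed in 15 RNA-seq libraries of rosettes, 3 from the wild type Col-0 and 3 from each of 4 lines labelled as T-DNA knock-outs. These lines were pgn (insertion in AT1G56570), mef37-1 (AT5G08305), at3g50420 and at5g10690, each affecting a gene for a pentatricopeptide repeat (PPR) protein. All plants were untreated and grown in plugs under 16 h of light at 20 °C and 8 h of dark at 18 °C, and the labels gave an age of 25.5 days, except in at5g10690. Replicates 1 and 2 of at5g10690 were labelled with Boyes growth stage 1.14, and replicate 3 with a planting and a harvest date 41 days apart and a genotype text that did not name an insertion. Each line was 1 insertion line, and nothing showed that same-line libraries came from separate plants, so p-values measured the spread between these libraries only.

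Plant mitochondria keep a small genome of their own, which encodes subunits of the respiratory chain complexes and of the ATP synthase, proteins that mature c-type cytochromes, some ribosomal proteins, ribosomal RNAs and transfer RNAs. Its transcripts are made by phage-type RNA polymerases encoded in the nucleus and are then spliced, trimmed and edited from C to U by nuclear-encoded proteins, many of them PPR proteins. PPR editing factors bind the RNA just upstream of the base that is edited.

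The study placed PGN, the protein encoded by the gene hit in pgn, at a site in the coding sequence of cox2 and at another in the leader of nad6. The 13 bases of each site to which the repeats of PGN were aligned are shown because they single out cox2 and nad6 among the members for the comparison of pgn with Col-0. They were copied from the prediction table of the study, with T for the U of the RNA, and the capital marks the last aligned base.
cox2 site: gaaagattatggT
nad6 leader site: gaacaaccgcgcT
Counts per gene do not show whether a base was edited, so only the amount of these transcripts is described.

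Of the 53 rows, 47 could be given a gene name from the RefSeq annotation, and 6 could not. Names were matched by exon lengths and neighbour distances, except those of atp9 and ccmFC, which came from notes in the annotation. The protein-coding rows numbered 31. There were 9 rows for subunits of complex I (nad), 1 of complex III (cob), 3 of complex IV (cox) and 6 of the ATP synthase (atp). Among the latter, atp6 had the rows ATMG00410 and ATMG01170. Another 5 rows were for cytochrome c maturation (ccm) and 7 for ribosomal proteins (rpl and rps). The others were rows matched to 2 ribosomal RNAs, 14 transfer RNA rows and the 6 rows without a match. Of those 6, ATMG00020 was 2565 nt long and the others 73 to 75 nt, so further ribosomal or transfer RNA genes may be among them. The genes mttB and matR had no matched row and were not analysed here.

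The 15 libraries held 19555274 to 30901304 counts, of which 59.1 to 65.0% fell on plastid genes. The gene hit by the insertion was lower in pgn (9, 6 and 16 counts of AT1G56570 against 23, 36 and 22 in Col-0) and in at5g10690 (1, 3 and 4 counts of AT5G10690 against 318, 319 and 201). In the other lines its counts overlapped those of Col-0. AT5G08305 had 17, 20 and 12 counts in mef37-1 against 8, 8 and 21 in Col-0. The study reported no full length transcript of this gene in leaves of the mutant, and strongly reduced editing at several mitochondrial sites there. AT3G50420 had 10, 11 and 13 counts in the libraries labelled at3g50420 against 11, 16 and 14, somewhat lower in each same-numbered pair. Counts summed over exons cannot show whether a transcript was full length, so they do not test either knock-out. The 3 rosette leaf markers summed to 73401 counts or more in each library, while the 3 markers each of root, flower and seed summed to at most 5. Both at5g10690 replicate 3 and at3g50420 replicate 1 stood apart within the mitochondrion, and the values that moved most without them are given beside the results. They were picked out by these same levels, so leaving them out makes the other libraries look more alike.

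Mitochondrial genes took about 1 count in 100. Their share of all counts was 1.36, 1.03 and 1.23% in Col-0 replicates 1 to 3, 1.24, 0.961 and 1.28% in pgn, 1.099, 1.05 and 1.080% in mef37-1, 1.12, 0.879 and 1.078% in at3g50420 and 1.25, 0.984 and 1.56% in at5g10690. The counts behind these shares were 219871 to 420364 per library, so that the 95% Wilson interval of a share was narrow (1.356 to 1.364% in Col-0 replicate 1), and it covers counting error only. Fewer mitochondria and less RNA per mitochondrion cannot be told apart in such bulk samples.

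**Figure D1:**
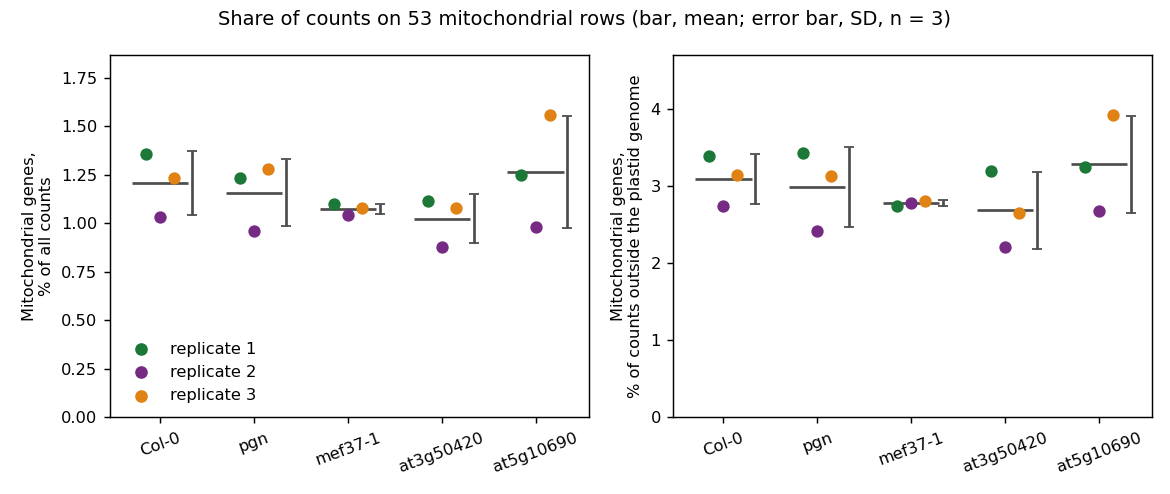
Share of counts on the 53 mitochondrial rows, as % of all counts (left) and as % of the counts outside the plastid genome (right), for 5 lines. Points are libraries coloured by replicate number, bars are means and error bars SD (n = 3); replicate 2 is the lowest point of every line on the left, but not of mef37-1 on the right.

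The mitochondrial share of each line overlapped that of Col-0 when libraries were not paired. The mean share was 1.21% ± 0.165 (SD, n = 3) in Col-0, 1.16% ± 0.172 in pgn, 1.07% ± 0.0270 in mef37-1, 1.02% ± 0.127 in at3g50420 and 1.26% ± 0.288 in at5g10690. The exact two-sided permutation p was 0.7, 0.4, 0.3 and 0.9, respectively, where 0.1 is the smallest p that 3 against 3 libraries allow (adjusted over the 4 comparisons, 0.9, 0.8, 0.8 and 0.9). Without replicate 3 of at5g10690, which had the highest share of all libraries, the difference of that line from Col-0 went from 0.0556 to -0.0914 percentage points. Between same-numbered libraries at3g50420 was below Col-0 in 3 of 3 pairs, by -0.244, -0.154 and -0.157 percentage points, a mean of -0.185 ± 0.0513 (SD, n = 3), and its exact two-sided sign-flip p of 0.25 is the smallest that 3 pairs allow. The other lines were each lower in 2 of 3 pairs.

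The share was also compared between replicate numbers, a test that could not pass the threshold with 5 lines. Replicate 2 had the lowest share in each of the 5 lines, with a mean of 0.980% ± 0.0665 (SD, n = 5) against 1.21% ± 0.107 in replicate 1 and 1.25% ± 0.197 in replicate 3. The ranges of number 2 (0.879 to 1.05%) and number 1 (1.099 to 1.36%) did not touch. The mean difference of number 2 from number 1 was -0.232 percentage points, lower in 5 of 5 lines, and that of number 3 from number 2 was 0.265, higher in 5 of 5 lines. Both gave an exact two-sided sign-flip p of 0.063, the smallest that 5 lines allow (0.0938 after adjustment over the 3 comparisons, which share libraries). Numbers 3 and 1 differed by 0.0335 percentage points (exact p = 0.813).
The plastid share was 62.0% ± 2.36, 61.6% ± 1.41 and 60.2% ± 1.03 in numbers 1, 2 and 3. Outside the plastid genome the mitochondrial share of number 2 was 2.56% ± 0.246 against 3.20% ± 0.272 in number 1, lower in 4 of 5 lines (exact p = 0.125). The exception was mef37-1, with 2.74, 2.78 and 2.81% in replicates 1 to 3.

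Within the mitochondrion the order of transcript levels was nearly the same in every library. Levels are given per length, as reads per kb of counted exon per 1000000 mitochondrial counts, which removes the overall share. Reads were mapped without spliced alignment, so reads across exon junctions may be lost. Levels of rows with several exons, such as nad1, nad2, nad4, nad5 and nad7, may therefore be too low by an unknown amount. Across the 31 protein-coding rows, Spearman's rho between libraries was 0.956 to 0.997 over 105 pairs of libraries, which share the gene set and its base composition. The least alike pair was at3g50420 replicate 1 and at5g10690 replicate 3, and without both libraries rho was 0.979 to 0.997 over 78 pairs.

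**Figure D2:**
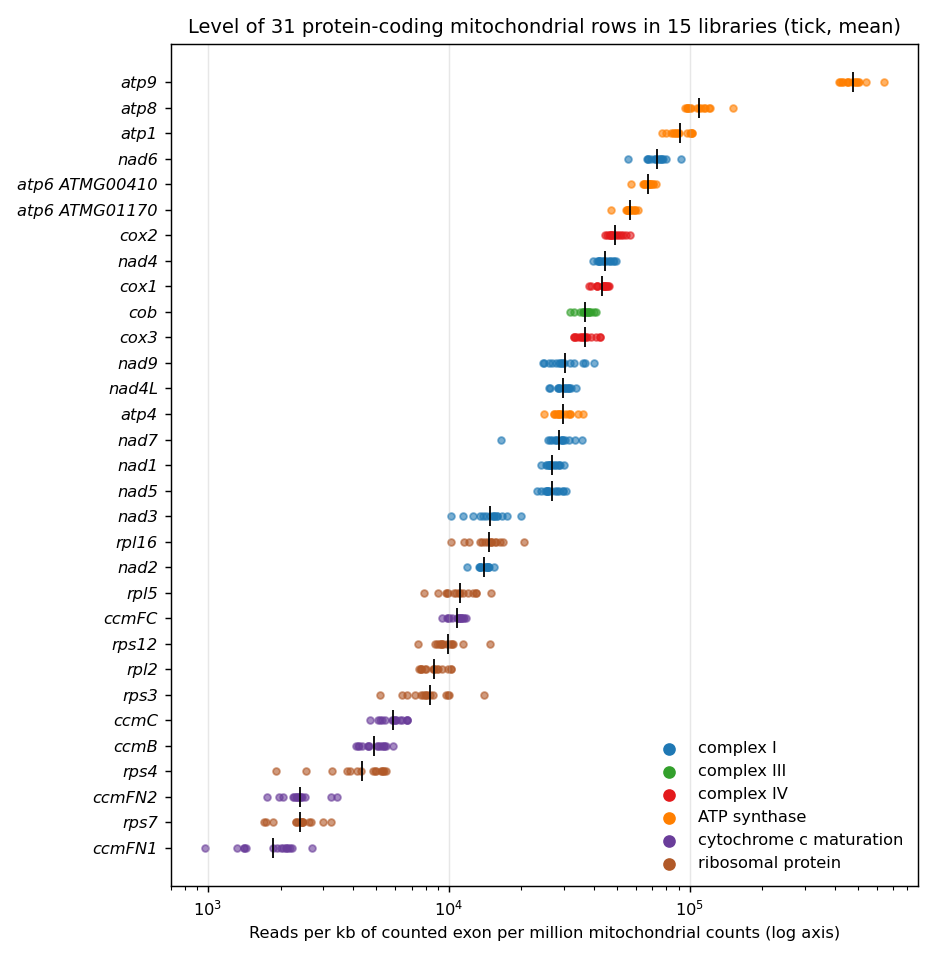
Level of each of the 31 protein-coding rows (reads per kb of counted exon per 1000000 mitochondrial counts, log axis). Points are the 15 libraries, black ticks their means and colours the complex or process; atp9 stands apart at the top, and ribosomal protein and ccm rows fill the bottom of the order.

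The ATP synthase rows led the order and took 46.8% ± 1.54 (SD, n = 15) of all mitochondrial counts. The highest level was that of atp9 (ATMG01080, which encodes the ring subunit c of the membrane part), at 477969 ± 57204, from 417639 in at5g10690 replicate 3 to 642953 in at3g50420 replicate 1. It was first in all 15 libraries, on average 4.39 times above atp8, and the ranges of these neighbours in the order did not overlap. Next came atp8 (109188 ± 14557) and atp1, the alpha subunit of the catalytic head (91350 ± 8729), which changed places in some libraries, as atp8 was above atp1 in 10 of 15. The atp6 rows ATMG00410 and ATMG01170, which encode subunit a next to the ring, had 66844 ± 3653 and 56205 ± 3162. These rows are copies that share sequence, and reads that fit both places were counted at both, so their levels are not independent. They took 7.74 and 5.90% of the mitochondrial counts on average. Reads counted at both enter the 46.8% and the mitochondrial total more than once, by an unknown amount. The subunit b gene atp4 was the lowest of the group, at 29758 ± 2850.

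The genes of complex I, the NADH dehydrogenase, took 27.8% ± 1.35 of the counts and covered a 5.21-fold range of mean level. The highest was nad6 (72931 ± 8047) and the next nad4 (44349 ± 2965). The genes nad9, nad4L, nad7, nad1 and nad5 lay close together between 26737 and 30314, and each overlapped the next in range. The lowest were nad3 (14821 ± 2405) and nad2 (13994 ± 821), both below nad5 in all libraries without exception. The genes nad1, nad2 and nad5 are assembled from exons transcribed in separate places and joined by trans-splicing, and their levels are for all 5 counted exons of each. Mapping without spliced alignment may have lowered these levels and widened the 5.21-fold range, whose lowest gene was nad2.

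Complex IV (cytochrome c oxidase) took 13.6% ± 0.436 of the counts. Its catalytic subunit gene cox1 was at 43168 ± 2442, the copper-binding subunit gene cox2 at 49142 ± 3526, and cox3 at 36732 ± 3189. The gene for cytochrome b of complex III, cob, was at 36892 ± 2378, beside cox3, and was the higher of both in 9 of 15 libraries, so this pair had no stable order.

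The lower part of the order held mostly ribosomal protein and cytochrome c maturation genes. The 7 ribosomal protein genes took 4.68% ± 0.724 of the counts, from rpl16 (14617 ± 2424) and rpl5 (11111 ± 1815) to rps4 (4354 ± 1096) and rps7 (2405 ± 414). The 5 genes for cytochrome c maturation, which deliver haem to apocytochromes, took 2.58% ± 0.112. They ran from ccmFC (10773 ± 715) through ccmC (5869 ± 629) and ccmB (4898 ± 533) to ccmFN2 (2414 ± 429) and ccmFN1 (1858 ± 454). In Arabidopsis CcmFN is encoded in 2 pieces, ccmFN1 and ccmFN2, and the ccmFN1 row was the lowest of all protein-coding rows on average, 257-fold below atp9.

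Ribosomal and transfer RNAs gave almost no counts in these libraries, which had been depleted of ribosomal RNA. The small subunit RNA rrn18 had 5 to 49 counts per library and rrn5 had 0 to 5, with reads in 8 of 15 libraries; a count of 0 allows up to 3 counts. The highest rrn18 count, 49, was in at5g10690 replicate 3. Transfer RNA rows summed to 256 to 559 counts, and the trnS(GCT) row alone had 86 to 200. There were 2 pairs of rows with identical counts in every library, trnK(TTT) ATMG00100 with ATMG00700 and the trnS(TGA) rows ATMG00230 and ATMG00420, where reads that fit both places were counted at both. In all, 99.8% ± 0.0214 of the mitochondrial counts were on the 31 protein-coding rows.

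Among the protein-coding rows, levels varied least between libraries for atp6, cox1, nad2 and nad1, whose coefficient of variation over the 15 libraries was 5.46% and 5.63% (the atp6 rows), 5.66%, 5.87% and 5.91%. They varied most for rps4 (25.2%), ccmFN1 (24.5%) and rps3 (24.3%). Without both libraries that stood apart these were 19.9, 22.8 and 13.9%, and the coefficient of variation of rps12 went from 16.6 to 7.79%, that of nad7 from 15.0 to 7.52% and that of nad6 from 11.03 to 5.93%. A fall was fixed in advance for rps3, rps12, nad7 and nad6, whose lowest and highest levels were in these libraries. The median was 16.6% for the ribosomal protein genes, 10.9% for the ccm genes, 9.57% for the ATP synthase and 8.26% for complex I, and without both libraries 11.8, 11.2, 7.81 and 6.73%.

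**Figure D3:**
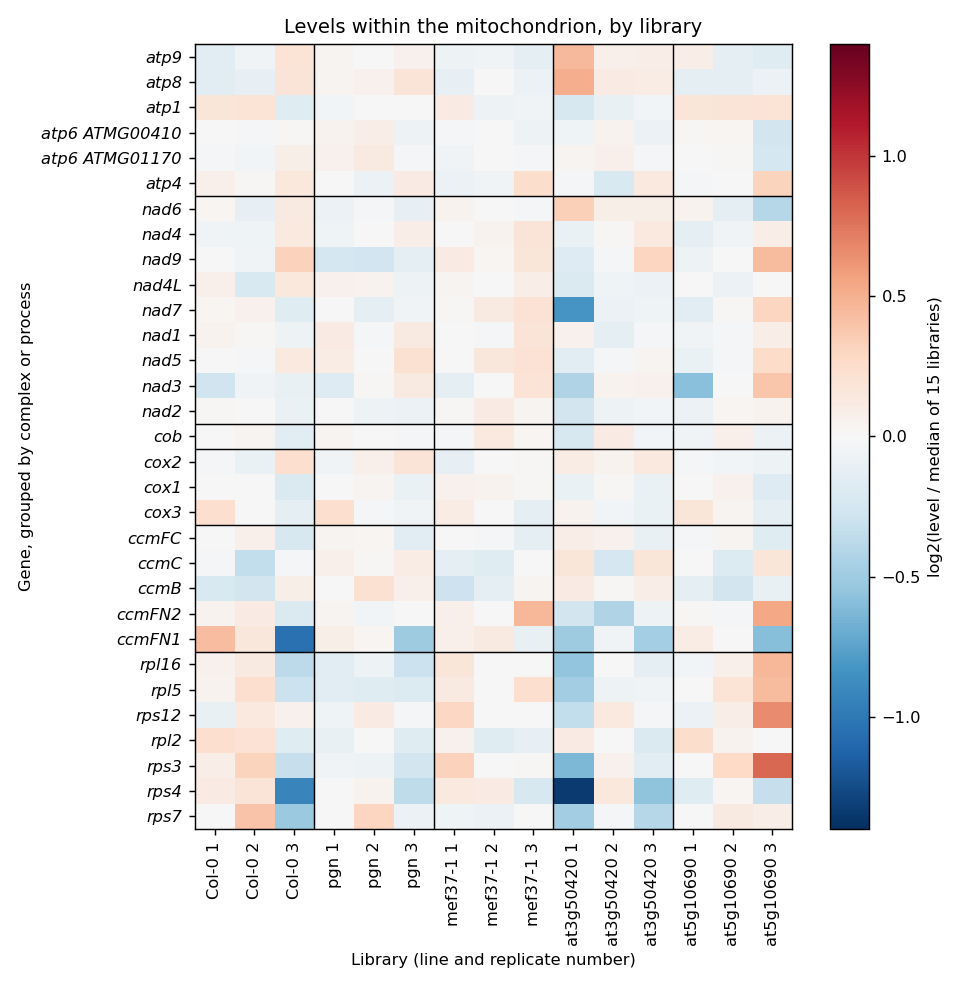
Level within the mitochondrion of each protein-coding row in each library, as log2 of its ratio to the median of the 15 libraries (red higher, blue lower), with rows grouped by complex or process. In at5g10690 replicate 3 rps3, rps12, rpl16 and rpl5 are at their highest, in at3g50420 replicate 1 they are at their lowest while atp8 and atp9 are at their highest, and ccmFN1 and rps4 are low in most libraries of replicate 3.

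Of the 7 ribosomal protein genes, 4 had their lowest and highest level in both libraries that stood apart. The level of rps3, a small subunit protein, was 8556, 9924 and 6404 in Col-0, 7771, 7636 and 6723 in pgn, 10020, 7987 and 8126 in mef37-1, 5168, 8367 and 7250 in at3g50420 and 8021, 9711 and 13998 in at5g10690. The lowest value was that of at3g50420 replicate 1 and the highest that of at5g10690 replicate 3, and the rest lay between 6404 and 10020. The levels of rpl16, rpl5 and rps12 had their minimum and maximum in the same pair of libraries, from 10189 to 20507 for rpl16, 7864 to 15017 for rpl5 and 7414 to 14833 for rps12. The other ribosomal protein genes did not follow this pattern: rps4 was lowest in at3g50420 replicate 1 but highest in Col-0 replicate 2, rps7 was lowest in Col-0 replicate 3 and highest in Col-0 replicate 2, and rpl2 was lowest in at3g50420 replicate 3 and highest in at5g10690 replicate 1. The library at5g10690 replicate 3 also had the highest nad7 (35838), nad9 (39952), nad3 (19972), atp4 and ccmFN2 levels and the lowest atp9, nad6 (55395), atp6 and cox3 levels. In at3g50420 replicate 1 nad6 (92291), atp8 (151204) and atp9 were highest, and nad7 (16480), rps4 (1914), atp1, cob, nad2 and nad5 lowest. Of these, nad6, atp9, nad7, atp1 and nad5 had their opposite extreme in at5g10690 replicate 3, while atp8, rps4, cob and nad2 did not. The library at3g50420 replicate 1 also had the highest plastid share (65.0%), and at5g10690 replicate 3 differed from the other libraries in its age label. The part of either in these levels was not tested.

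Genes that lie close together on the same strand may be transcribed together, so the ratio of their levels was followed. Positions are those of the mitochondrial sequence of the count tables (TAIR10), which was arranged differently from that of RefSeq. There rps3 (Mt:20163-23415) ran into rpl16 (Mt:23282-23821) by 134 bp on the plus strand, and their ratio was 0.568 ± 0.0443 (SD, n = 15), from 0.507 to 0.683. Reads in the overlap belonged to neither gene under the counting used, so both levels are too low by an unknown amount. The ratio of nad4L (Mt:360580-360882) to atp4, 266 bp downstream, was 1.01 ± 0.104. That of nad3 (Mt:286995-287354) to rps12, 45 bp downstream, was 1.51 ± 0.194. That of rpl16 to nad9, 840 bp downstream, was 0.487 ± 0.0753. The coefficient of variation of these ratios was 7.80, 10.2, 12.9 and 15.5%, while those of the single genes were 24.3% for rps3, 16.6% for rpl16, 16.2% for nad3, 16.6% for rps12, 14.9% for nad9, 9.58% for atp4 and 7.02% for nad4L. Thus rps3 and rpl16, and nad3 and rps12, varied less against each other than each did alone, while nad4L and atp4 did not, and the ratio of rpl16 to nad9 lay between both genes. Without both libraries that stood apart this held for rps3 and rpl16 (5.21% against 13.9 and 10.5%) but not for nad3 and rps12 (13.4% against 12.8 and 7.79%), and the ratio of rpl16 to nad9 (15.4%) lay above both genes (10.5 and 12.6%). Ratios of genes far apart were not followed, so whether a steady ratio is particular to neighbours was not tested. The distant rpl5 (Mt:183796-184353) also had its lowest and highest level in the same libraries as rps3 and rpl16.

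No mitochondrial gene passed the test between any line and Col-0. The test was a quasi-likelihood test on counts normalized over all genes, with p-values adjusted over all genes tested (Benjamini-Hochberg, threshold 0.05), and the 4 comparisons share the Col-0 libraries. In pgn edgeR called 0 of 44 members tested, beside 0% of all genes, and in mef37-1 0 of 44 beside 0.00569%. In at3g50420 it was 0 of 44 beside 0%, and in at5g10690 0 of 43 beside 0.0114%. At an unadjusted p under 0.05 there were 0 members in each, beside 0.873, 1.41, 2.91 and 0.312% of all genes. DESeq2 called 0 members in each (0.00421, 0.021, 0.0168 and 0.0168% of all genes), as did edgeR with the replicate number as a block (0.00571, 0.0114, 0.00568 and 0.0114%). The main test left the replicate number out, so the spread between numbers is part of its p-values and SEs. With the block, 1239, 638, 1266 and 323 genes had an unadjusted p under 0.05, against 153, 247, 512 and 55 without it. The members among them stayed at 0, but 1 was among them in pgn when the blocked fit was also scaled by the total of each genome. The study, with its own methods, reported more differentially expressed genes in pgn and in mef37-1 than passed in these fits. The members split into 26 higher and 18 lower in pgn, 12 and 32 in mef37-1, 14 and 30 in at3g50420 and 31 and 12 in at5g10690. Without the library that stood apart the split was 2 and 43 in at3g50420 and 23 and 20 in at5g10690. Scaled by the total of each genome, the splits were 23 and 21, 24 and 20, 19 and 25, and 20 and 23, and the median of all genes was -0.11, -0.09, -0.16 and 0.02. The sign of a small difference therefore depended on the scale. Rows that did not pass the filter on low counts were rrn5, transfer RNAs and rows without a name, with at most 58 counts in a library.

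**Figure D4:**
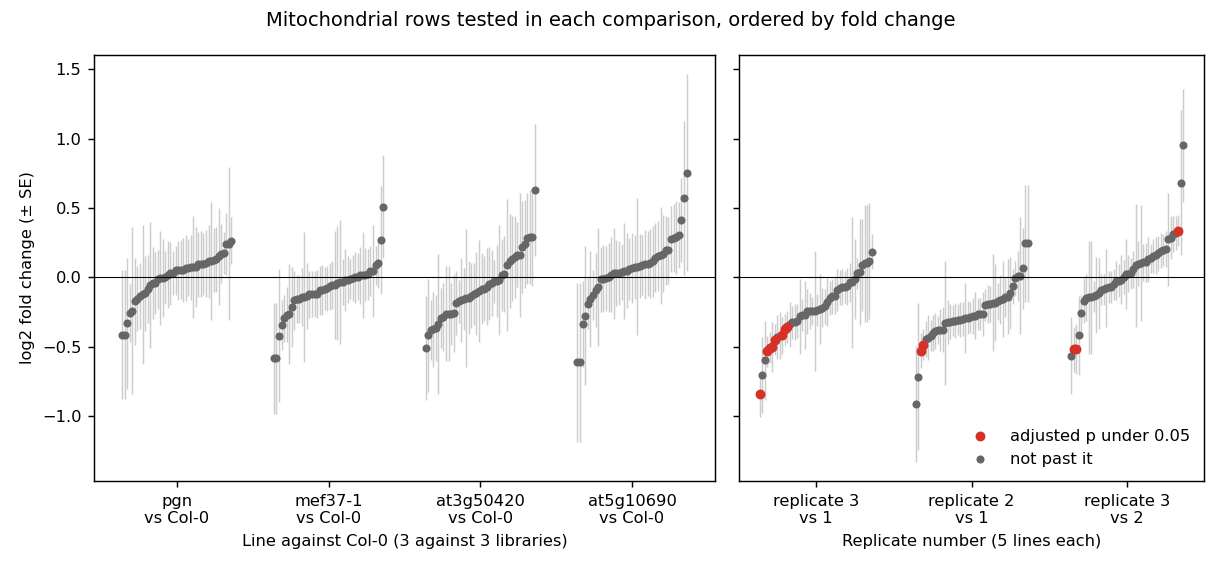
Log2 fold changes (points) and their standard errors (grey bars) of the mitochondrial rows tested in each comparison, ordered by size, for the 4 lines against Col-0 (left) and for the replicate numbers across the 5 lines (right). Red points passed an adjusted p of 0.05: none on the left, and 8, 2 and 3 rows on the right.

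Neither gene with a PGN site was called between pgn and Col-0. Normalized counts per 1000000 counts (CPM) of cox2 were 468, 385 and 478 in Col-0 and 521, 410 and 477 in pgn, a log2 fold change of 0.07 (SE 0.21, adjusted p = 1.00). Those of nad6 were 582, 453 and 533 in Col-0 and 612, 459 and 465 in pgn, a log2 fold change of -0.04 (SE 0.22, adjusted p = 1.00). Both genes overlapped between the lines. The highest log2 fold change in pgn was that of ccmB (0.26, SE 0.17, adjusted p = 1.00), with 34.2, 28.5 and 35.9 CPM in Col-0 and 44.9, 37.4 and 36.7 in pgn, which did not overlap. This was the case for 1 of 46 members, beside 4.62% of 18358 genes, and for 0 members in mef37-1 (5.74%) and at5g10690 (3.38%). It was followed by ATMG09740 (0.24) and ccmC (0.24). The lowest were trnK(TTT) and its copy ATMG00700 (both -0.41, at 21 counts or fewer in any library) and the merged methionine tRNA row ATMG00250 (-0.33). Of the 31 protein-coding rows 22 were higher and 9 lower in pgn than in Col-0, with a median log2 fold change of 0.07 (0.02 scaled by the total of each genome) and a median SE of 0.23.

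Apart from mttB, which had no matched row, no gene in which the study listed an altered site was called in mef37-1. Their log2 fold changes were -0.08 for ccmB (SE 0.15), -0.06 for ccmC (SE 0.17), -0.02 for rps3 (SE 0.23), -0.12 for atp4 (SE 0.17), -0.06 for nad4L (SE 0.17), -0.02 for nad4 (SE 0.17) and -0.12 for both atp6 rows (SE 0.17), each with an adjusted p of 1.00. The ccmFC gene, which carries another listed site and was added to these after its values were seen, had -0.09 (SE 0.18, adjusted p = 1.00). Scaled by the total of the mitochondrial genome, ccmB, ccmC, rps3, nad4L and nad4 turned to between 0.00 and 0.07. The highest values were those of trnN(GTT) (0.51, SE 0.37), ATMG00020 (0.27) and ccmFN2 (0.11), and the lowest those of trnK(TTT) and its copy (-0.59) and ATMG00250 (-0.42). Over the protein-coding rows 9 were higher and 22 lower, with a median of -0.06 and a median SE of 0.17. The median was 0.03 when each gene was scaled by the total of its genome.

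In at3g50420 the lowest log2 fold changes were those of rps4 (-0.51, SE 0.38), ccmFN1 (-0.42, SE 0.41) and nad7 (-0.38, SE 0.22), and the highest those of ATMG09740 (0.63, SE 0.48), trnN(GTT) and trnS(GCT) (both 0.29), each with an adjusted p of 0.987. The nad7 gene, which encodes a core subunit of complex I, had 447, 393 and 332 CPM in Col-0 and 281, 298 and 325 CPM in at3g50420, so that the groups did not overlap. Apart from nad7, of the 46 members trnY(GTA) (18 counts or fewer) did not overlap either, beside 7.9% of 18358 genes. Without single libraries the log2 fold change of nad7 ranged from -0.49 to -0.26, that of ccmFN1 from -0.77 to 0.01 and that of rps4 from -0.82 to -0.26. Without at3g50420 replicate 1, rps4 was at -0.33, trnN(GTT) at 0.06 and trnS(GCT) at -0.16. Of the protein-coding rows 7 were higher and 24 lower (median -0.12, and -0.07 scaled by the total of each genome), and without this library 0 were higher and 31 lower (median -0.28). That fit was not run scaled by the total of each genome. The mitochondrial share, common to all rows, was 0.879 and 1.078% in at3g50420 replicates 2 and 3, against 1.36, 1.03 and 1.23% in Col-0. The split is therefore not a count of separate changes.

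In at5g10690 the highest were ATMG00020 (0.76, SE 0.71), rrn18 (0.57, SE 0.56) and rps3 (0.42, SE 0.30), and the lowest trnK(TTT) and its copy (-0.61, SE 0.57) and trnG(GCC) (-0.34, SE 0.31), each with an adjusted p of 1.00. Here replicate 3 moved the values at both ends. Without it, the log2 fold change of ATMG00020 was -0.41, that of rrn18 -0.08, that of rps3 0.13 and that of trnK(TTT) and its copy -1.34, and over all 6 fits without a single library that of rps3 ran from 0.13 to 0.54. Of the protein-coding rows 26 were higher and 5 lower (median 0.08, and 0.02 scaled by the total of each genome), and without replicate 3 22 were higher and 9 lower (median 0.05).

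Between replicate numbers, unlike between lines, some members passed the test. These comparisons used all 15 libraries with the line as a covariate, and 46 members were tested. The comparisons share libraries, and the labels do not say what a replicate number stands for.

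Between numbers 3 and 1, 8 of 46 members (17.4%) were lower and 0 higher, while of all genes 33.9% passed, 18.4% lower and 15.5% higher. The share of members called was therefore not above that of all genes in this direction. At an unadjusted p under 0.05 it was 34.8% beside 44.4%, and DESeq2 called 12 of 52 (23.1%) beside 28.5%. The member that fell most was ccmFN1, with 39.3 CPM in Col-0, 34.8 in pgn, 26.0 in mef37-1, 23.4 in at3g50420 and 32.6 in at5g10690 in replicate 1, and in the same order 12, 18.1, 22.3, 16.2 and 18.2 CPM in replicate 3. It was lower in 5 of 5 lines, and all values of number 3 lay under those of number 1. Its log2 fold change was -0.84 (SE 0.16, adjusted p = 0.00227), and -0.58 (adjusted p = 0.0133) within the mitochondrial total. The others were cox3 (-0.53), rpl2 (-0.51), rps4 (-0.50), ccmFC (-0.45), nad6 (-0.42), cox1 (-0.37) and the atp6 row ATMG00410 (-0.36), with adjusted p from 0.00394 to 0.0463. By group this was 1 of 6 ATP synthase rows, 1 of 9 complex I genes, 2 of 3 complex IV genes, 2 of 5 ccm genes and 2 of 7 ribosomal protein genes. The median log2 fold change was -0.24 over the 46 members and 0.01 over all genes, and 12 members were lower and 0 higher in all 5 lines (17.8 and 17.5% of all genes). Outside the calls, the methionine tRNA row ATMG00250 (-0.70, adjusted p = 0.0637) and trnG(GCC) (-0.60, adjusted p = 0.121) were among the 3 lowest, and nad3 (0.19, adjusted p = 0.283), ATMG09740 (0.12) and trnK(TTT) with its copy (0.10) were the highest. Without at3g50420 replicate 1 trnG(GCC) was at -0.33, and without at5g10690 replicate 3 nad3 was at 0.06.

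The calls depended on the scale and on single libraries. Scaled by the total of its own genome, the median of all genes moved to 0.23 and that of the members to 0.03, with 26 members higher and 20 lower. On this scale ccmFN1, cox3 (-0.26) and rpl2 (-0.24) were lower within the mitochondrion, and nad3 (0.45, adjusted p = 0.00592) and nad9 (0.30, adjusted p = 0.0236) were higher, 5 members beside 43.6% of all genes. On the scale of all genes, leaving out replicate 1 of pgn or replicate 3 of pgn or at3g50420 left 4 members called. Leaving out replicate 1 of Col-0 or at3g50420 left 5, and leaving out replicate 1 of mef37-1 gave 14. The genes ccmFN1, cox3, rpl2 and ccmFC passed in all 15 of these fits, and rps4 in 1. The mitochondrial share of all counts was not lower in number 3 (1.25%) than in number 1 (1.21%). The normalization factors of the libraries went from 0.777 to 1.08 in number 1 and from 1.04 to 1.30 in number 3, and their part in these differences was not tested.

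Between numbers 2 and 1, 2 of 46 members (4.35%) were lower, beside 1.75% of all genes in that direction and 2.45% in either. They were cox3, with a log2 fold change of -0.48 (SE 0.11, adjusted p = 0.0446), and ccmC, which takes part in haem delivery, with -0.53 (SE 0.13, adjusted p = 0.0470). In CPM, cox3 had 429, 487, 335, 430 and 429 in replicate 1 of the 5 lines (in the order above) and 315, 293, 325, 257 and 312 in replicate 2, with no overlap. Both calls were lost on leaving out any library other than mef37-1 replicates 2 and 3 and at5g10690 replicate 3, and within the mitochondrial total 0 members passed (1.91% of all genes), with 2 members at an unadjusted p under 0.05. Yet 41 of 46 members had a value below 0, with a median of -0.28 (0.01 over all genes), and 30 of the 31 protein-coding rows did so, rps4 (0.01) being the exception. At an unadjusted p under 0.05 there were 21 members (45.7%) beside 21% of all genes, and DESeq2 called 11 of 47, all lower, beside 6.09% of all genes. In all 5 lines 9 members (19.6%) were lower and 0 higher, beside 9.37 and 10.2% of all genes. The lowest values were those of rrn18 (-0.91, SE 0.42, adjusted p = 0.235) and ATMG00020 (-0.72, SE 0.53, adjusted p = 0.475), and the highest those of trnK(TTT) with its copy (0.25) and trnN(GTT) (0.06), which were 0.42 and 0.25 without at3g50420 replicate 1. Higher calls made up 0.692% of all genes and 0 members.

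Between numbers 3 and 2, 3 of 46 members (6.52%) passed, beside 32.4% of all genes, 2 lower (17.2%) and 1 higher (15.2%). The genes ccmFN1 (-0.52, SE 0.16, adjusted p = 0.0258) and rps4 (-0.51, SE 0.18, adjusted p = 0.0430) were lower, and nad9, a complex I subunit gene, was higher (0.34, SE 0.11, adjusted p = 0.0369), each in 5 of 5 lines. For rps4 the CPM were 65.3, 56.2, 64.0, 53.4 and 56.3 in replicate 2 and 30.0, 46.1, 46.9, 35.0 and 50.6 in replicate 3, with no overlap. For nad9 they were 178, 145, 193, 152 and 178 in replicate 2 and 228, 172, 198, 204 and 274 in replicate 3, which overlapped. The same 3 genes passed within the mitochondrial total, together with ccmC (0.27) and atp4 (0.26), beside 44.8% of all genes. DESeq2 called 4 of 52 (7.69%) beside 27.1%, and at an unadjusted p under 0.05 there were 6 members (13%) beside 42.9%. In all 5 lines 4 members were lower and 4 higher (19.7 and 19.8% of all genes). The 3 highest values were those of rrn18 (0.95, adjusted p = 0.0918), ATMG00020 (0.68, adjusted p = 0.346) and nad9, and the lowest was that of ATMG00250 (-0.56, adjusted p = 0.138). Without at5g10690 replicate 3, ATMG00020 was at 0.04 and rrn18 at 0.66. The nad9 call was lost without the filter on low counts (adjusted p = 0.0547), where the transfer RNA row trnD(GTC) was called instead (-1.53, adjusted p = 0.0181). Leaving out Col-0 replicate 2, Col-0 replicate 3, pgn replicate 3 or at5g10690 replicate 3 left 1 member called, leaving out at3g50420 replicate 2 left 0, and leaving out at3g50420 replicate 1 gave 5. The median over the members was 0.03, as over all genes.

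Nuclear genes for mitochondrial gene expression and genome upkeep were followed beside the members as a list of 14 genes. In the 4 line comparisons edgeR and DESeq2 called 0 of 14, with 2, 2, 1 and 0 at an unadjusted p under 0.05 in pgn, mef37-1, at3g50420 and at5g10690, beside 0.873, 1.41, 2.91 and 0.312% of all genes. These were RPOTm, the mitochondrial RNA polymerase (-0.60 in pgn and -0.51 in mef37-1), and RPOTmp, the RNA polymerase of mitochondria and plastids (-0.76 in pgn, -0.53 in mef37-1 and -0.43 in at3g50420), with edgeR adjusted p of 1.00, 1.00 and 0.987 in these lines, which were compared with the same Col-0 libraries. Between numbers 3 and 1, 4 rose: nMAT2, a maturase for mitochondrial introns (1.03), the organelle DNA polymerases POLIB (0.54) and POLIA (0.52), and RPOTm (0.46). RNR1, an organelle exoribonuclease, fell by 0.34 on the log2 scale. Between numbers 3 and 2, nMAT2 rose (0.91) and RNR1 (-0.49) and the DNA helicase TWINKLE (-0.68) fell, and between numbers 2 and 1 edgeR and DESeq2 called 0, with 3 at an unadjusted p under 0.05, beside 21% of all genes. Over all genes 33.9% passed between numbers 3 and 1 and 32.4% between numbers 3 and 2.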

How the data were processed

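Total RNA of rosettes was depleted of ribosomal RNA and sequenced as stranded single-end reads of 75 nt. Per the file headers and the methods of the study, the authors mapped reads with STAR, keeping all best positions and allowing no spliced alignment, and deposited 1 table of raw counts per library from featureCounts 1.5.0-p2 (strand setting 2, exons summed per gene, multi-mapped reads counted at each place, reads over 2 genes dropped). The headers name an annotation of TAIR10, release 36. Of 22 single-exon protein-coding rows, 4 lay on the opposite strand in RefSeq and the others started 1 to 1109 bp away. Names were therefore matched by exon length (within 3 nt, for nad2 in all exons but 1). For transfer RNAs and rrn5 they were matched by length and distance to a matched gene (within 12 nt). The names of atp9 and ccmFC came from protein names in notes of the annotation. No sequence was read by position. The methods name another mitochondrial sequence for mapping than the headers of the deposited counts. The counted stretches of 16 of the 22 rows did not overlap the gene in RefSeq, among them atp9, atp8 and atp1, the 3 highest levels of all rows, so the positions of the tables were taken as those in which reads were counted.

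Line comparisons used edgeR 4.0.16 in R 4.3.3 (filterByExpr, TMM, glmQLFTest, Benjamini-Hochberg) on the 6 libraries concerned, and number comparisons all 15 libraries with line as covariate. Alternatives used DESeq2 1.42.0 and other settings. Printed CPM use the TMM factors of all 15 libraries. Shares were compared by exact tests (SciPy 1.17.1). The code was tested on simulated data. The members, the gene lists and the rule for which tests are printed (calls, up to 10, the 3 highest and 3 lowest fold changes, and carriers of affected sites) were chosen with earlier results of these data known. Libraries of 1 line differed beyond counting error (chi-square per degree of freedom 22.8 or more). Same-numbered libraries deviated together from their line means over the 18358 genes tested (correlation with Col-0 0.272 to 0.753 in all 12 pairs), so the numbers were taken to pair the libraries. Of these pairs, replicate 2 of at3g50420 and of at5g10690 correlated more with Col-0 replicate 1 (0.300 and 0.387) than with Col-0 replicate 2 (0.298 and 0.305). Over the 46 mitochondrial rows alone the same-number correlations were -0.248 to 0.440.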

Additional observations from a re-analysis of the deposited data

Results flagged for a closer look

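Levels of the 31 protein-coding rows, each with 100 or more counts in every library, and the mitochondrial share were examined within the 5 libraries of each replicate number for a single library far from the others (Dixon's ratio above 0.71). Of 96 groups of 5 libraries 11 were past this limit, where chance gives about 1 in 20 for a single group. The groups of 1 number share the same 5 libraries, and the levels are parts of 1 total. An excess over chance can therefore not be read from this count. Values are reads per kb per 1000000 mitochondrial counts.

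Of the 11, 6 belonged to at3g50420 replicate 1. There nad6 was at 92291 (69029 to 75599 in the other libraries of number 1) and atp8 at 151204 (95275 to 109600), both high. Low were nad7 at 16480 (26274 to 29759), nad4L at 26258 (30210 to 31609), rps7 at 1743 (2354 to 2467) and ccmFN2 at 1966 (2377 to 2465).

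Another 3 belonged to at5g10690 replicate 3, with rps3 at 13998 (6404 to 8126 in the other libraries of number 3) and rps12 at 14833 (9239 to 9778) high, and ccmB at 4679 (5182 to 5362) low. The others were nad9 in pgn replicate 2, low at 24545 (28567 to 30080), and nad5 in mef37-1 replicate 2, high at 28590 (25163 to 25681). The mitochondrial share passed the limit in no number.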

How the results depend on the processing

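In the 4 line comparisons 0 members were called under every alternative run, among them the replicate block (0 in each, also with each gene scaled by the total of its genome, an alternative added after seeing the data), DESeq2 and leave-one-out fits (0 to 0). With the replicate block the difference in share from Col-0 was unchanged by construction, at -0.0505, -0.134, -0.185 and 0.0556 percentage points in pgn, mef37-1, at3g50420 and at5g10690 (exact sign-flip p 0.5, 0.5, 0.25 and 1, where 3 pairs allow no p below 0.25; also added later). Leaving out single libraries it ran from -0.139 to 0.0481 in pgn, -0.223 to -0.0588 in mef37-1, -0.273 to -0.109 in at3g50420 and -0.0914 to 0.196 in at5g10690.

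For the replicate numbers, members called in 3 against 1, 2 against 1 and 3 against 2 (8, 2 and 3) became 4, 0 and 0 at a threshold of 0.01, as a stricter limit must give fewer, 5, 0 and 5 scaled by the total of each genome, and 4 (2 against 1) without a line term. DESeq2 called 12, 11 and 4. Without single libraries they ran from 4 to 14, 0 to 2 and 0 to 5. The difference in share of 3 from 1 turned from 0.0335 to -0.0695 percentage points outside the plastid genome and ran from -0.0349 to 0.0734 without single libraries; that of 2 from 1 ran from -0.277 to -0.208 and that of 3 from 2 from 0.188 to 0.323. Scaled by the total of each genome, log2 fold changes in mef37-1 turned positive for rps3 (0.0707), ccmB (0.00184), nad4 (0.0674), nad4L (0.0328) and ccmC (0.0292). With the replicate block rps3 was 0.00386, and with both it was 0.0866, ccmB 0.00381, nad4 0.0686, nad4L 0.0406 and ccmC 0.0346; none passed the threshold and the cause was not tested. Without single libraries some signs turned. In pgn, cox2 ran from -0.0211 to 0.176, nad6 from -0.176 to 0.0607 and ATMG09740 from -0.136 to 0.592. In mef37-1, ATMG00020 ran from -0.00711 to 0.512, rps3 from -0.202 to 0.0850, nad4 from -0.0823 to 0.0281, nad4L from -0.184 to 0.0546, ccmC from -0.189 to 0.0732 and ccmFN2 from -0.0170 to 0.217. In at3g50420, trnS(GCT) ran from -0.157 to 0.547 and ccmFN1 from -0.770 to 0.00518. In at5g10690, ATMG00020 ran from -0.410 to 1.17 and rrn18 from -0.0755 to 0.939. In 3 against 1, ATMG00700 and its copy ran from -0.240 to 0.439 and ATMG09740 from -0.115 to 0.442, and in 2 against 1 trnN(GTT) from -0.154 to 0.253.

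The unfiltered fit tested all 53 rows and called 8, 2 and 3, where in 3 against 2 trnD(GTC) took the place of nad9. Depth limits mainly the ribosomal and transfer RNA rows. With 3 against 3 libraries the share test could not pass 0.1. The median SE of 0.17 to 0.26, from line fits without the replicate block, left small changes out of reach in those fits.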
